A study of Homo sapiens with 4 samples.

Results

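The genes described here are the folding and quality control machinery of the endoplasmic reticulum (ER): 45 genes for ER chaperones, disulfide and prolyl isomerases, sensors and transcription factors of the unfolded protein response (UPR), and factors of ER-associated degradation (ERAD). They were chosen by name and function, and 34 of the 45 have a row in the authors' deposited table, which holds 8727 genes. The series compares HepG2 cells, an established human liver cancer line labelled as hepatoblastoma, given 20 µM isoginkgetin for 24 h (2 libraries) with HepG2 cells given the solvent DMSO (2 libraries). Isoginkgetin, a biflavonoid from plants, is known to inhibit pre-mRNA splicing, and the series title concerns autophagic cell death. Polyadenylated RNA was sequenced without strand information, and 26 of the 45 genes share some exon bases with another gene in GENCODE 29, 7 of them at least 10%.

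All expression values come from the authors' deposited table of the comparison. Its rows hold, per gene, the normalized count averaged over the 4 libraries, the log2 fold change, the standard error (SE) of that change and an adjusted p-value, and no row has an adjusted p of 0.05 or more. No single library's values are analysed here, so the depth and the spread of single libraries are unknown, and no label states that the replicates were separate cultures. The SE and the p-value therefore reflect only how these libraries scatter, and that scatter may be technical. The headers do not name the group in the numerator. Isoginkgetin is taken as the numerator and DMSO as the denominator, the common practice; with the roles exchanged, every direction given here would turn. Of 14 hepatocyte markers 13 are in the table, 12 of them lower with isoginkgetin and 1 higher, at mean normalized counts between 442.3 (TTR) and 157400 (APOB). Of the markers of other cell types, 1 of 6 fibroblast genes, 2 of 5 leukocyte genes and 1 of 4 endothelial genes are in the table, all lower. ALB itself has no row. The part of these changes in those of the ER genes was not tested, and in bulk RNA fewer cells of a kind and less RNA per cell cannot be told apart.

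Proteins that enter the secretory pathway fold in the ER with the help of the Hsp70 chaperone BiP, the lectin chaperones calnexin and calreticulin, and disulfide isomerases, and those that fail to fold are pulled back to the cytosol and degraded by the proteasome. When unfolded proteins accumulate, the sensors IRE1, PERK and ATF6 start the UPR. IRE1 splices the XBP1 messenger outside the nucleus so that it encodes an active transcription factor, PERK phosphorylates eIF2α and raises translation of ATF4, and ATF6 is cut in the Golgi to release a transcription factor. Hepatocytes secrete large amounts of plasma protein and depend on this machinery.

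Promoters of several of these genes hold ER stress response elements, the DNA sequences that ATF6 and XBP1 are known to act through together with the factor NF-Y. RefSeq promoter windows of build GRCh38.p14, which run from 250 bases before to 50 bases after each annotated transcript start, were matched for 40 of the 45 genes. The classic element (ERSE, the letters CCAAT and CCACG with any 9 bases between them, searched on both strands) is in the windows of 8 of these 40 genes (20%), against 25 of all 27305 genes with a window (0.0916%). The related ERSE-II (ATTGG and CCACG with any 1 base between them, both strands) is in those of 3 members (7.5%), against 19 of all genes (0.0696%). Both elements contain CCACG and, on one strand or the other, CCAAT. A match is a run of letters and says nothing of binding. The genes were listed for their part in the pathway these elements serve, so the shares describe the list and were not tested. The ERSE copies are shown here because they sit before genes that moved by very different amounts, with the element in capitals and 5 flanking bases in lower case, 5′ to 3′ on the strand that carries the element.
HSPA5, chr9:125241386-125241414, minus strand: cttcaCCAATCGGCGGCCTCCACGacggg
HSP90B1, distal copy, chr12:103930211-103930239, plus strand: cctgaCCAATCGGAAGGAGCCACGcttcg
HSP90B1, proximal copy, chr12:103930316-103930344, minus strand: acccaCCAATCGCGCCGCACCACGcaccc
CALR, chr19:12938379-12938407, minus strand: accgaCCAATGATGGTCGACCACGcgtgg
CANX, chr5:179698773-179698801, plus strand: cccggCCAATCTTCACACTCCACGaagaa
PDIA6, chr2:10812848-10812876, minus strand: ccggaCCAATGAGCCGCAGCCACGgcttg
ERO1LB, chr1:236282178-236282206, plus strand: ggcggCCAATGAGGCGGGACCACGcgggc
CRELD2, chr22:49918549-49918577, minus strand: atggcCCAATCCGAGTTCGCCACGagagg
XBP1, chr22:28800598-28800626, minus strand: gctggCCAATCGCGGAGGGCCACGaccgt

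The ERSE-II copies are shown the same way, since they lie before HERPUD1, SDF2L1 and HYOU1, which all rose more than 2-fold. This element was added after seeing the data.
HERPUD1, chr16:56932020-56932040, plus strand: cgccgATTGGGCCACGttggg
SDF2L1, chr22:21642109-21642129, minus strand: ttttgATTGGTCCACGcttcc
HYOU1, distal copy, chr11:119057375-119057395, plus strand: ctgggATTGGACCACGtcacg
HYOU1, proximal copy, chr11:119057269-119057289, plus strand: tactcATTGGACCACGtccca

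Most of the ER genes in the table were higher with isoginkgetin. Of the 45 genes, 30 (66.7%) were higher and 4 (8.89%) lower at the threshold, and 11 have no row, so their direction is unknown. Over all 20024 genes the authors tested, a number recovered from the p-values, 43.6% passed, 22.4% as higher and 21.1% as lower. At 2-fold or more, 13 of the 45 genes (28.9%) were higher and 0 lower, against 6.26% higher and 7.43% lower of all genes tested. The median log2 fold change of the 34 genes was 0.71, against 0.21 for all 8727 genes in the table. The ER genes with a row had a median mean normalized count of 2747 and a median SE of 0.072, against 741.4 and 0.125 for all genes in the table, so smaller changes could pass among them. Among genes in the table with a mean normalized count of at least 1000, 27 of 30 ER genes (90%) were higher, as were 2112 of all 3645 genes (57.9%). The list was chosen with earlier results of these data known, so these counts are a description and the list was not tested.

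**Figure D1:**
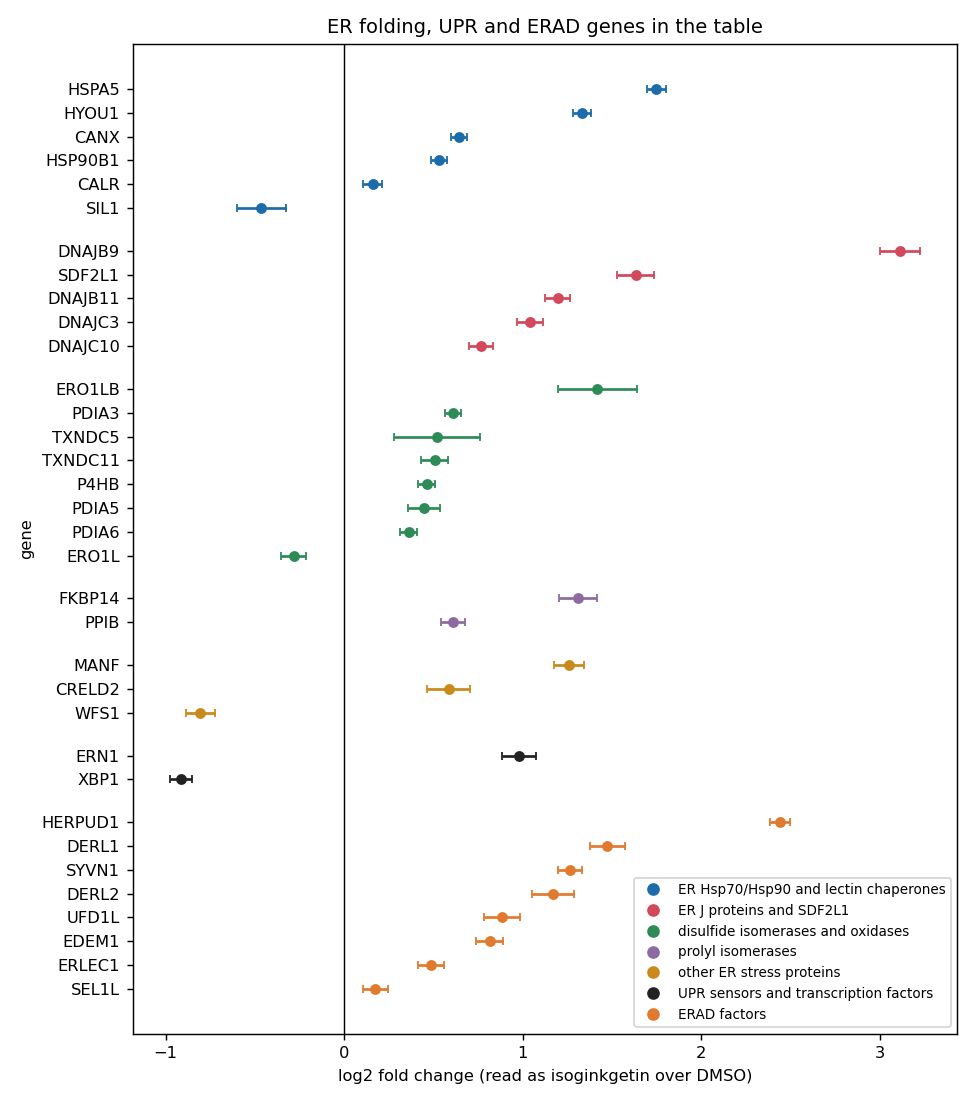
Log2 fold change in the authors' deposited table (horizontal axis, read as isoginkgetin over DMSO) of the 34 genes with a row, grouped and coloured by role; points are the deposited values and bars are ± 1 SE. DNAJB9 and HERPUD1 lie farthest to the right at 3.11 and 2.44, and SIL1, ERO1L, WFS1 and XBP1 are the 4 genes left of 0.

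The Hsp70 and Hsp90 chaperones of the ER lumen rose by unequal amounts. HSPA5, which encodes BiP, the chief Hsp70 chaperone, which also binds the UPR sensors at rest, averaged 44094 normalized counts over the libraries, with a log2 fold change, called log2 change from here on, of 1.75 (SE 0.052, adjusted p 8.74e-248) by the authors' deposited table. If that fold change is taken as the plain ratio of the group means, HSPA5 stood at 67959 normalized counts in isoginkgetin cells and 20228.5 in DMSO cells. HYOU1, a large Hsp70 relative that exchanges nucleotide on BiP, had a mean normalized count of 14717 and a log2 change of 1.33 (SE 0.050, adjusted p 5.17e-154) by the authors' deposited table. HSP90B1, the ER Hsp90 known as GRP94, had a log2 change of 0.53 (SE 0.044, adjusted p 1.51e-32) by the authors' deposited table. HSPA5 thus moved by 1.22 more than HSP90B1 on the log2 scale (SE of the difference 0.068, from the deposited SEs with the genes taken as independent). Both promoters hold an ERSE. SIL1, the other nucleotide exchange factor of BiP, went the other way with a log2 change of −0.46 (SE 0.14, adjusted p 0.00138) by the authors' deposited table, with a mean normalized count of 575.5.

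The lectin chaperones, which hold glycoproteins while they fold, both rose, by less than 2-fold. CANX, the membrane-bound calnexin, had a log2 change of 0.64 (SE 0.045, adjusted p 2.74e-45) and CALR, its soluble relative calreticulin, at 0.16 (SE 0.054, adjusted p 0.00747) by the authors' deposited table. CALR lies below the median of the table, and centring the fold changes on that median (0.21) turns it to the lower side. CANX exceeded CALR by 0.48 (SE of the difference 0.070, log2 scale). UGGT1 and UGGT2, which mark misfolded glycoproteins for another round of folding, have no row.

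All 5 J proteins and J protein partners were higher, with a median log2 fold change of 1.196. J proteins bring substrates to BiP and start its ATP cycle. DNAJB9, also called ERdj4, which is known to hold IRE1 in its resting state with BiP, had a log2 change of 3.11 (SE 0.11, adjusted p 3.08e-171) by the authors' deposited table, with a mean normalized count of 1245. Read as the ratio of group means, this is 2233 normalized counts in isoginkgetin cells and 258.0 in DMSO cells, or 8.65-fold. Read as isoginkgetin over DMSO, this was the highest log2 fold change of the 3645 genes with a mean normalized count of at least 1000 in the authors' deposited table, and with the roles exchanged it would be the lowest. DNAJB9 shares 6.45% of its exon bases with THAP5 and 3.49% with PNPLA8, both on the other strand. PNPLA8 had a log2 change of 1.25, and what the sharing adds was not tested. SDF2L1, a partner of ERdj3 that keeps substrates from aggregating, had a log2 change of 1.63 (SE 0.10, adjusted p 7.87e-55) by the authors' deposited table. The substrate-binding DNAJB11 (ERdj3) had a log2 change of 1.196 (SE 0.071, adjusted p 8.14e-62) and DNAJC3 at 1.04 (SE 0.072, adjusted p 4.76e-46) by the authors' deposited table. DNAJC3, known as p58IPK, also inhibits eIF2α kinases. The mean normalized counts of SDF2L1, DNAJB11 and DNAJC3 were 1604, 2780 and 3054 by the authors' deposited table. DNAJC10, a J protein that reduces disulfides of ERAD substrates, was lowest of these with a log2 change of 0.77 (SE 0.068) by the authors' deposited table.

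The protein disulfide isomerases and thioredoxin-domain proteins of the 45 genes that have a row were all higher by less than 2-fold. P4HB, the founding member of the family, had a log2 change of 0.46 (SE 0.050), PDIA3, which works with the lectin chaperones, at 0.61 (SE 0.047, adjusted p 6.46e-37), PDIA5 at 0.45 (SE 0.088) and PDIA6 at 0.36 (SE 0.047) by the authors' deposited table. TXNDC11 had a log2 change of 0.51 (SE 0.073) and TXNDC5 at 0.52 (SE 0.24, adjusted p 0.0400) by the authors' deposited table, and TXNDC5 had the highest adjusted p of the 34. TXNDC5 shares 60.6% of its exon bases with the read-through gene BLOC1S5-TXNDC5 in GENCODE 29, and its mean normalized count was 171.4. PDIA5 shares 12.2% of its exon bases with SEC22A on the same strand, which has no row. PDIA6 shares 25.2% of its exon bases with ATP6V1C2 on the other strand, which itself had a log2 change of 1.99 by the authors' deposited table, and PDIA3 shares 14.8% with ELL3, at 1.26. Reads without strand cannot be assigned within such stretches, and what this adds to the values was not tested. The pseudogene PDIA3P1 had a log2 change of −1.21 by the authors' deposited table, opposite to PDIA3. PDIA4 has no row.

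The ER oxidases, which pass oxidizing equivalents to the isomerases, split. ERO1LB (now ERO1B) had a log2 change of 1.42 (SE 0.22, adjusted p 2.01e-10) and ERO1L (now ERO1A), which is also induced by hypoxia, at −0.28 (SE 0.072, adjusted p 0.000259) by the authors' deposited table. The difference between the paralogs was 1.70 on the log2 scale (SE of the difference 0.23). The mean normalized counts were 231.0 for ERO1LB and 3237 for ERO1L, and the SE of ERO1LB is the larger.

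Prolyl isomerases, which turn the peptide bond before proline, were higher in both cases with a row. FKBP14 had a log2 change of 1.31 (SE 0.10, adjusted p 2.37e-35) and PPIB, the ER cyclophilin, at 0.61 (SE 0.065, adjusted p 9.1e-20) by the authors' deposited table. PPIB shares 27.2% of its exon bases with SNX22 on the other strand. Their mean normalized counts were 1154 for FKBP14 and 4175 for PPIB by the authors' deposited table. FKBP2 has no row. Of the other ER stress proteins, MANF, a secreted ER stress protein that binds BiP, had a log2 change of 1.26 (SE 0.085, adjusted p 7.12e-49) and CRELD2 at 0.59 (SE 0.12, adjusted p 2.97e-06) by the authors' deposited table. WFS1, the ER membrane protein mutated in Wolfram syndrome and a known UPR target, was lower with a log2 change of −0.81 (SE 0.082, adjusted p 4.94e-22) by the authors' deposited table. Mean normalized counts were 1831 for MANF, 1319 for CRELD2 and 2713 for WFS1 by the authors' deposited table.

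The sensors and transcription factors did not move together. ERN1, the gene of the IRE1 sensor, had a log2 change of 0.98 (SE 0.096, adjusted p 8.51e-24) and XBP1, whose messenger IRE1 splices, at −0.92 (SE 0.060, adjusted p 8.68e-52) by the authors' deposited table. For XBP1 the mean normalized count of 14180 corresponds to 9827 in isoginkgetin cells and 18533.5 in DMSO cells, read as the ratio of group means. The ERN1 messenger thus rose while that of XBP1 fell, with a difference of 1.90 on the log2 scale (SE of the difference 0.11). ERN1 had a mean normalized count of 1458 by the authors' deposited table. A gene-level count adds spliced and unspliced XBP1 messengers together, so it does not show how much was spliced. ATF6 and CREB3L2, a membrane-bound factor related to ATF6, have no row. PERK (EIF2AK3), listed with the other UPR regulators, had a log2 change of 1.796 (SE 0.10, adjusted p 8.08e-68) by the authors' deposited table, which is 0.82 above ERN1 (SE of the difference 0.14).

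All 8 ERAD genes with a row were higher, of 13 listed, with a median log2 fold change of 1.03. HERPUD1, a membrane protein that brings the ubiquitin ligase complex together, had a log2 change of 2.44 (SE 0.054) by the authors' deposited table, with a p-value and adjusted p listed as 0, as is that of each of 4 genes in all. This is 5.43-fold, or 14343 normalized counts in isoginkgetin cells and 2643 in DMSO cells when read as the ratio of group means, and has rank 3 from the highest log2 fold change among the 3645 genes with a mean of at least 1000, or rank 3643 with the roles exchanged. SYVN1, the ubiquitin ligase HRD1 at the centre of that complex, had a log2 change of 1.27 (SE 0.067, adjusted p 3.82e-77) and SEL1L, its obligate partner, at 0.18 (SE 0.067, adjusted p 0.0226) by the authors' deposited table. The change of the SYVN1 messenger exceeded that of SEL1L by 1.09 (SE of the difference 0.095, log2 scale). SYVN1 shares 7.24% of its exon bases with FAU on the same strand, which itself had a log2 change of 0.74. It shares 6.48% with MRPL49 on the other strand, at −0.28, and what this adds was not tested. SEL1L turns to the lower side when fold changes are centred on the median of the table. The channel components DERL1, with a log2 change of 1.47 (SE 0.096, adjusted p 3.55e-52), and DERL2, at 1.17 (SE 0.12, adjusted p 7.34e-23), both rose by the authors' deposited table, with a difference of 0.31 (SE of the difference 0.15) between them. The mean normalized counts of HERPUD1, SYVN1, DERL1 and DERL2 were 8493, 3350, 1333 and 847.3 by the authors' deposited table. UFD1L, a cofactor of the segregase p97 that extracts substrates, had a log2 change of 0.88 (SE 0.10), EDEM1, which trims mannose from glycoproteins bound for degradation, at 0.82 (SE 0.075) and ERLEC1, a lectin that reads the trimmed glycan, at 0.49 (SE 0.073) by the authors' deposited table. EDEM2, EDEM3, DERL3, OS9 and NPLOC4 have no row. DERL3 shares 77% of its exon bases with SMARCB1 on the other strand.

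**Figure D2:**
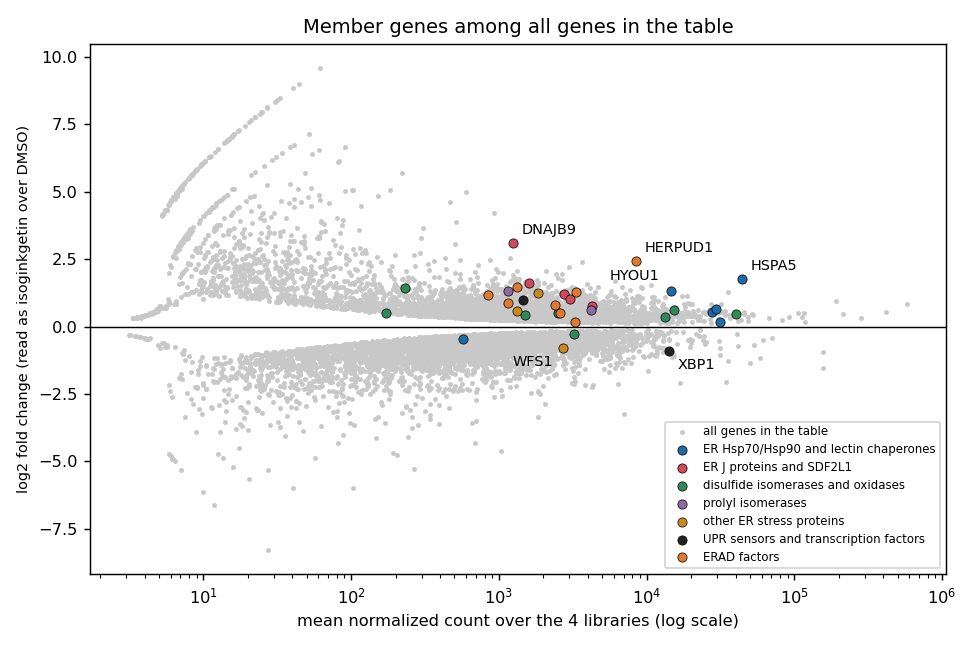
Mean normalized count over the 4 libraries (horizontal, log scale) against log2 fold change (vertical, read as isoginkgetin over DMSO) for all 8727 genes in the authors' deposited table (grey) and the 34 ER genes with a row (coloured by role). Of the ER genes 30 lie at a mean of at least 1000, where fold changes are small for most genes, and DNAJB9, HERPUD1 and HSPA5 stand at the upper edge of the cloud.

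Values are given for genes with and without these elements, and the difference between them was not tested. Only exact matches inside the windows count, so genes with neither may hold variants or copies farther away. Of all 27305 genes with a window, 23.5% have a row under their symbol and 11.9% were higher. These genes outnumber the 20024 tested, so they include untested genes, which lower both shares. Over all genes tested, 43.6% have a row and 22.4% were higher. All 11 genes with an ERSE or ERSE-II (100%) have a row, 10 of them higher (90.9% of the 11) and 1 lower. Their log2 fold changes have a median of 0.645 and a range from −0.92 (XBP1) to 2.44 (HERPUD1). The ERSE-II was added after seeing the data, and its 3 holders stood at 2.44 (HERPUD1), 1.63 (SDF2L1) and 1.33 (HYOU1). The log2 fold changes of the 8 genes with an ERSE ranged only from −0.92 (XBP1) to 1.75 (HSPA5). The 29 genes with a window and neither element include 19 (65.5%) with a row, 16 of them higher (55.2% of the 29) and 3 lower; the log2 fold changes of these 19 have a median of 0.61 and a range from −0.81 (WFS1) to 3.11 (DNAJB9), and the other 10 have no value here. The ERSE of HSPA5 runs from position −66 to −48 and that of XBP1 from −52 to −34, counted from the annotated start, while that of CALR begins at −225 and that of ERO1LB at −243. Of the 11 genes XBP1 alone was lower.

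The sequences before the start are given for 3 holders at the ends of this range (HERPUD1 and HSPA5 high, XBP1 low) and for DNAJB9, which rose most and holds neither element. In the HSPA5, HERPUD1 and XBP1 promoters capitals mark the ERSE or ERSE-II. In the DNAJB9 promoter they mark the single boxes CCACG and CCAAT on either strand. Each runs 5′ to 3′ on the gene's strand over the 250 bases before the start.
HSPA5, chr9:125241344-125241593, minus strand: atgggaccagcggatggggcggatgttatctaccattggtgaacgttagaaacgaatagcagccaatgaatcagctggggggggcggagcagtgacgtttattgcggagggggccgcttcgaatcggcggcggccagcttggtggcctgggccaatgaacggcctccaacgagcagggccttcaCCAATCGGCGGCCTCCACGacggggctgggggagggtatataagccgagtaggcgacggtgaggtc
HERPUD1, chr16:56931892-56932141, plus strand: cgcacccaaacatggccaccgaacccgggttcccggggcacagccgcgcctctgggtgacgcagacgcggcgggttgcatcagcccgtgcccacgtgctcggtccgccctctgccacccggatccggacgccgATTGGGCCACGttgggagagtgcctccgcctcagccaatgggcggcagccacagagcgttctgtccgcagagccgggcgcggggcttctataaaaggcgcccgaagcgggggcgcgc
XBP1, chr22:28800570-28800819, minus strand: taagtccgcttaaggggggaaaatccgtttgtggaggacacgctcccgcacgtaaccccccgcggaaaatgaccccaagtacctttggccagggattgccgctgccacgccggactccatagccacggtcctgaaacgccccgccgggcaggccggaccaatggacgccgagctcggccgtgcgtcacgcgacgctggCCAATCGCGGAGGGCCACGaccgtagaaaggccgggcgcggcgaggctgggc
DNAJB9, chr7:108569624-108569873, plus strand: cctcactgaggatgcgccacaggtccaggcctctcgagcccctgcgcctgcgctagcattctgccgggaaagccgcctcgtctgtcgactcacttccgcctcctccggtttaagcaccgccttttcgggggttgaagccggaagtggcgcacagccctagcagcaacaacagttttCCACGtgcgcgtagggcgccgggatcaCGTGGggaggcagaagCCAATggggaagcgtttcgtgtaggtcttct

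The single boxes are common: CCAAT is in the windows of 31 of 40 ER genes (77.5%) and 39.7% of all genes with a window, and CCACG in those of 31 of 40 (77.5%) and 42.1%. The UPR element TGACGTGG, which XBP1 is known to bind and whose other strand contains CCACG, is in those of HYOU1, DNAJC10, TXNDC5 and TXNDC11, or 4 of 40 (10%), against 0.927% of all genes. In HYOU1 it overlaps the distal ERSE-II.

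**Figure D3:**
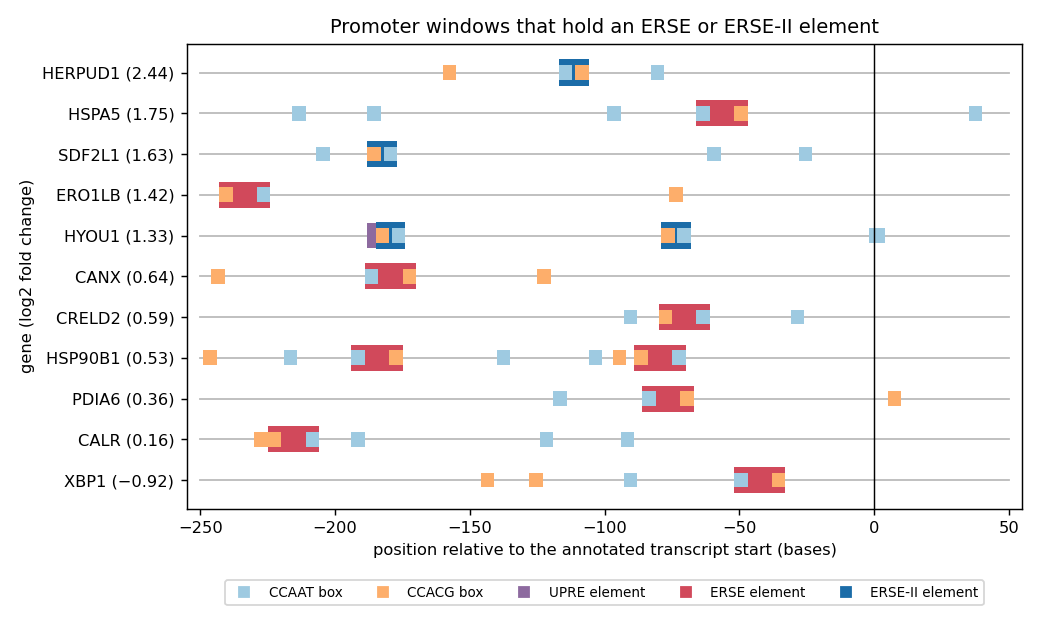
Positions of ERSE (red) and ERSE-II (dark blue) elements, the UPR element (purple) and single CCAAT (light blue) and CCACG (orange) boxes in the promoter window of each ER gene that holds an ERSE or ERSE-II, in bases from the annotated transcript start (horizontal axis); genes run from the highest to the lowest log2 fold change, given in brackets. HERPUD1 is at the top with 2.44 and XBP1 at the bottom with −0.92, and elements close to the start and far from it occur both among genes that moved much (HSPA5, ERO1LB) and among the lowest (XBP1, CALR).

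Across the genome few other genes carry these elements. Outside the ER list 33 genes hold an ERSE or ERSE-II, and 9 of them (27.3%) have a row, 7 higher and 2 lower. Of all genes with a window, untested genes included, 23.5% have a row under their symbol, against 43.6% of all genes tested. Among the 9 are genes of the same machinery, named after their values were seen. SERP1, which stabilizes membrane proteins during ER stress, had a log2 change of 1.70 (SE 0.059, adjusted p 4.79e-182) and FICD, the enzyme that adds AMP to BiP, at 2.06 (SE 0.23, adjusted p 4.78e-19) by the authors' deposited table. ALG12, which stands head to head with CRELD2 and shares exon bases with it, holds the element too and has no row. None of the 77 matched genes of the other ER lists holds either element.

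Other genes of the ER pathway, 97 in 5 lists, were also counted: 47 (48.5%) were higher, 14 (14.4%) lower and 36 without a row, with a median log2 fold change of 0.47 among those in the table. Over all genes tested 22.4% were higher and 21.1% lower, and the count of each list below is given with its shares. Whether this differs from the 45 genes was not tested.

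Other ERAD factors were higher in 14 (56%) and lower in 2 (8%) of 25 cases. The selenoproteins SELK, with a log2 change of 1.79 (SE 0.12, adjusted p 7.25e-54), and VIMP, at 1.42 (SE 0.097, adjusted p 1e-47), which bind p97 and the derlins, led this list by the authors' deposited table, followed by the ubiquitin ligase RNF185 at 0.96 (SE 0.12). Among N-glycan genes 10 (58.8%) were higher and 2 (11.8%) lower of 17. KRTCAP2, with a log2 change of 0.88 (SE 0.26), and OSTC, at 0.87 (SE 0.074), both subunits of the oligosaccharyltransferase, and the glucose-binding lectin MLEC at 0.72 (SE 0.057) had the highest values by the authors' deposited table. GANAB, the catalytic subunit of glucosidase II, was lower with a log2 change of −0.63, while its partner PRKCSH had a log2 change of 0.25 by the authors' deposited table. Both were named after their values were seen.

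Other ER oxidoreductases were higher in 8 (42.1%) and lower in 3 (15.8%) of 19 cases. PDIA2, a disulfide isomerase of the pancreas by its usual description, had a log2 change of 2.22 (SE 0.084, adjusted p 1.49e-152) by the authors' deposited table, the largest change of any isomerase listed here. SELM, an ER selenoprotein, had a log2 change of 1.07 (SE 0.15) and TXNDC16 at −0.95 (SE 0.24) by the authors' deposited table. Of the 19 remaining J proteins, isomerases and folding factors, 5 (26.3%) were higher and 5 (26.3%) lower, shares near those over all genes tested. HSPA13, an Hsp70 relative, had a log2 change of 1.39 (SE 0.075, adjusted p 4.3e-75) and SEC63, the J protein of the translocon, at 1.03 (SE 0.062, adjusted p 2.77e-59) by the authors' deposited table. FKBP9, a prolyl isomerase, had a log2 change of −0.95 (SE 0.100) by the authors' deposited table, opposite to FKBP14.

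Regulators of the UPR were higher in 10 (58.8%) and lower in 2 (11.8%) of 17 cases. On the PERK arm, PPP1R15A, which directs dephosphorylation of eIF2α, had a log2 change of 2.40 (SE 0.077), ATF4 at 0.73 (SE 0.046) and DDIT3, the transcription factor CHOP, at 1.22 (SE 0.13, adjusted p 4.07e-21) by the authors' deposited table. CREB3, a membrane-bound factor cut like ATF6, had a log2 change of 1.23 (SE 0.11, adjusted p 3.76e-30) by the authors' deposited table. MBTPS2 and MBTPS1, the proteases that cut ATF6, were both lower, with log2 changes of −1.17 (SE 0.15, adjusted p 4.84e-15) and −0.24 (SE 0.070) by the authors' deposited table, and were named after their values were seen. NFYA, a subunit of the NF-Y factor that binds CCAAT, had a log2 change of 0.34 (SE 0.10), also named afterwards, by the authors' deposited table.

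**Figure D4:**
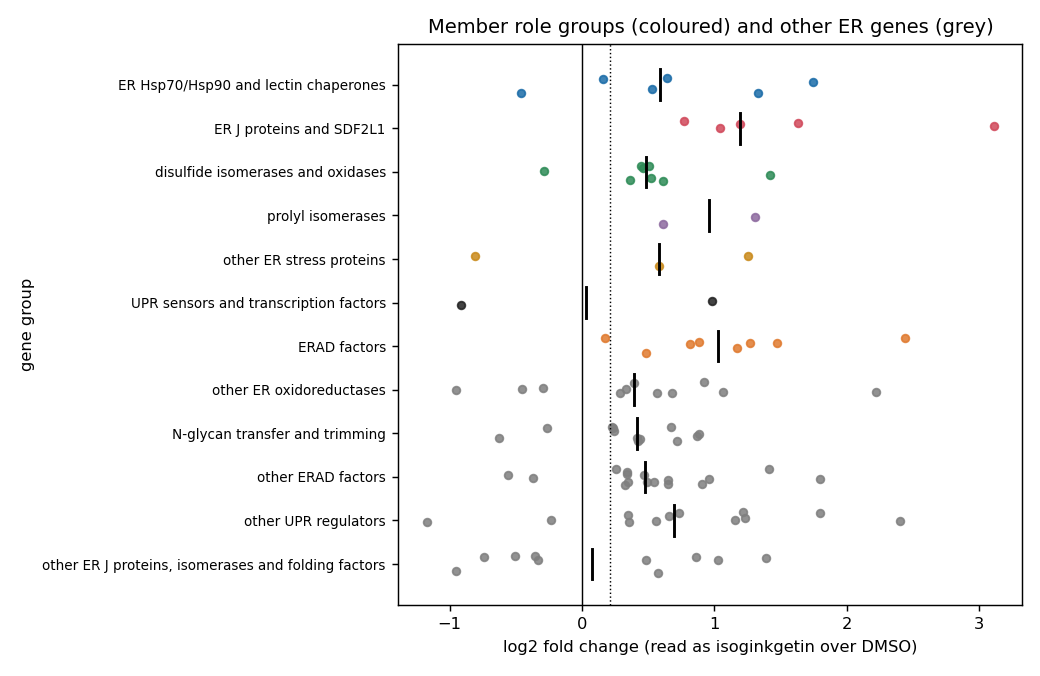
Log2 fold change (horizontal axis, read as isoginkgetin over DMSO) of each gene in the authors' deposited table, in the 7 role groups of the ER folding, UPR and ERAD genes (coloured) and the 5 lists of other ER genes (grey); thick bars are medians, the solid line is 0 and the dotted line the median of all genes in the table, 0.21. The J proteins and ERAD factors have no gene left of 0, and the last grey list has 5 genes on each side of it.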

How the data were processed

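Sample titles gave the groups and replicate numbers, and the design text gave dose and time. Per the submitters' processing notes, STAR 2.7.0 and featureCounts were used and the builds hg19 and mm10 are named; the annotation, the handling of reads shared between genes and the depth per library are not stated in the sources used here. Per the file headers, the columns are those DESeq2 writes, less the test statistic. The authors' deposited mean normalized count is a signal averaged over libraries. Fold changes and SEs deposited by the authors are log2 values. The authors' deposited p-values were adjusted by the Benjamini-Hochberg method; dividing rank times adjusted p by p gave 20024 genes tested, by a step tested on simulated data.

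Members and lists were chosen with earlier results of these data known. Named genes were members changed at least 2-fold, lower, or among the 2 largest of their role group, and the 3 largest of each other list with a mean of 100 or more normalized counts, plus EIF2AK3, DDIT3, ATF4 and PPP1R15A; the rest are given by value or as having no row. The tests planned on values per library could not be run, and the authors' results were used. For ER genes with a p above 0, the fold change over its SE was between 0.906 and 0.998 of the p-value's normal deviate. The median of this ratio was 0.585 for genes with a mean under 30. The size of any shrinkage of the fold changes cannot be read from this ratio, since the SE may be shrunken too. Any shrinkage may be stronger for genes of low count. The shares and medians over all genes include such genes. Group means assume that the fold change is a plain ratio of 2 libraries each. Promoter windows and symbols come from RefSeq (GRCh38.p14), and a gene counts as holding an element if any of its windows does; PDIA3, FKBP14, DERL1, DERL3 and UFD1L had no match; the ERSE-II was added after seeing the data. Exon overlaps come from GENCODE 29, used for names and shares only, with 45 of 45 genes matched. Computation used pandas 2.3.3, numpy 2.4.6, scipy 1.17.1 and matplotlib 3.10.9.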

Additional observations from a re-analysis of the deposited data

How the results depend on the processing

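Only centring on the median of the table could change the direction of a gene, and under it CALR and SEL1L turned to the lower side. The other settings keep or drop genes, or change the promoter search, and cannot change the sign of a fold change. Of the counts and medians recomputed, 124 stayed within 1.5-fold (for the median, within the median SE of a gene) and 64 moved. A reversal was defined for the median only, which kept its sign, and most settings only dropped genes from a set that is mostly higher. None of the counts moved by over 1.5-fold with only the 250 bases before the start. Requiring a mean of 100 or more normalized counts removed no listed gene, so its 29 results among the 124 were fixed in advance. The lowest means were 171.4 among the ER genes and 171.0 among the other ER genes. With a spacing of 8 to 10 bases in the ERSE, chosen after seeing the data, the count of ER genes stayed at 8 while that of all genes with a window was 43 (0.157%) in place of 25. Stricter thresholds keep fewer genes by construction, 29 of the 34 with Bonferroni, and centring subtracts 0.213 from every log2 fold change.

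At an adjusted p under 0.001 the median of the ER genes was 0.849, with 0 chaperones lower, 1 N-glycan gene, 1 other UPR regulator and 3 other J proteins and folding factors lower. With Bonferroni the median was 0.883 and 2 ER genes were lower, 0 of them chaperones and 0 disulfide enzymes. Among other ER genes 6 were then lower; the oxidoreductases stood at 4 higher and 0 lower, N-glycan genes at 6 and 1, J proteins and folding factors at 3 and 3, and ERAD factors and UPR regulators at 1 lower each. Centring gave a median of 0.493, with 2 chaperones and 1 ERAD factor lower.

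At 1.5-fold the median was 1.168 and 2 ER genes were lower; chaperones stood at 3 higher and 0 lower and disulfide enzymes at 2 and 0. Other ER genes were then 24 higher and 5 lower: oxidoreductases 4 and 1, N-glycan genes 4 and 1, ERAD factors 6 and 0, J proteins and folding factors 3 and 2, and UPR regulators 1 lower. At 2-fold the median was 1.331, with 13 ER genes higher and 0 lower. Chaperones stood at 2 higher and 0 lower, disulfide enzymes at 1 and 0, prolyl isomerases at 1 higher, other ER stress proteins at 1 and 0, sensors and transcription factors at 0 and 0, and ERAD factors at 4 higher. Other ER genes were then 11 higher and 1 lower: oxidoreductases 2 and 0, N-glycan genes 0 and 0, ERAD factors 2 and 0, UPR regulators 5 and 1, and J proteins and folding factors 2 and 0.

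No paired analysis was possible because the table holds no value per library. Leaving out a library, another count tool and the description of protein ends were not run; the first needs values per library too, and no protein sequences were used here. The depth per library is unknown. Genes without a row have no value here.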
